A study of Mus musculus with 2 samples.

Results

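The 30 genes described here are the glucose transporters, the enzymes of glycolysis, the lactate and pyruvate branch, and a small set of hypoxia genes of mouse splenic dendritic cells (DC). The rule names them by gene symbol and uses no measured value. The 30 symbols matched 31 of the 32285 gene rows in the files. Aldoa had a second row with 6 unique molecular identifiers (UMIs, each counting 1 captured RNA molecule) in both libraries together, and the row with 10288 UMIs (ENSMUSG00000030695) was used.

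Single cell RNA-seq was made from live CD45.2+ CD11c+ cells sorted from the spleens of naive female mice of 4 months. 1 library came from H2-Aa +/+ mice (WT) and the other from mice homozygous for the citation allele of H2-Aa (H2-Aa cit/cit), an effectively null allele of the MHC class II alpha chain that arose by germline mutagenesis, so the chain is missing in every cell and not in DC alone. Each library pooled 3 mice that the files do not tell apart. There was therefore 1 sample per genotype: no difference below was tested against the spread between animals, and every interval covers counting error only.

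Glycolysis carries glucose from the transporters through hexokinase, phosphofructokinase and a run of cytosolic enzymes to pyruvate, which is reduced to lactate by lactate dehydrogenase or enters the mitochondrion. In low oxygen the factor HIF1 alpha is no longer hydroxylated and degraded, and it induces many of these same enzymes together with BNIP3, VEGF and the prolyl hydroxylase EGLN3. DC take up more glucose when they mature in response to microbial products, and PFKFB3, which makes the activator of phosphofructokinase, is an enzyme known to be raised in activated myeloid cells.

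H2-Aa itself stood at 5410 CPM (UMIs of a gene per 1000000 UMIs of the cells it was summed over) in WT, with a UMI in 98.1% of cells, and at 66.2 CPM in H2-Aa cit/cit, with a UMI in 29.7% of cells. There were 7814 WT cells with 51020804 UMIs, at a median of 5492 per cell, and 11525 H2-Aa cit/cit cells with 72652201 UMIs, at a median of 5633. The median share of ribosomal protein UMIs per cell was 10.98% in WT and stood at 16.1% in H2-Aa cit/cit, and 31 cell barcodes occurred in both libraries. The defining DC genes were present in both, Itgax at 199 and 224 CPM, Flt3 at 422 and 333 CPM and Zbtb46 at 273 and 265 CPM (WT first, as throughout).

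Cells were put into classes by marker genes, none of them a member of the list. Of these classes 8 are followed gene by gene. They are resting cDC2 (1812 WT and 4842 H2-Aa cit/cit cells), Ccr2+ cDC2 (131 and 405), cDC1 (578 and 654), mature DC without cDC1 genes (971 and 773) and with them (426 and 81), proliferating DC without cDC1 genes (276 and 583), pDC (108 and 118), and cells high in Wdfy4 with under 10% ribosomal UMIs (1770 and 2246), which are named by that rule alone. Most of these classes are ranges of a marker score. Near its limit lay 44 WT and 38 H2-Aa cit/cit cells of cDC1, but 28 and 122 of Ccr2+ cDC2. Of mature DC without cDC1 genes 169 and 150 did. Resting cDC2 are instead cells left over by those scores, with at least 10% ribosomal UMIs and at least 3 cDC2 markers detected. Of them 190 and 228 lay within 2 percentage points of the ribosomal limit. Asking for a clear lead in marker score kept only 57 and 145 of them. In a clustering of the same cells (Leiden), the cluster with most cDC2 markers held 781 and 1850 resting cDC2. The clusters with most Ccr2+ cDC2 markers held 320 and 1011, and 183 and 290, and an erythroid cluster 154 and 165. Resting and Ccr2+ cDC2 are thus not cleanly separate populations here. UMIs were summed over a class, a gene entered where its mean over both libraries was at least 10 CPM, and a log2 ratio (H2-Aa cit/cit over WT) beyond 0.4 in size is called past the fold.

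Of the 30 members, 25 passed the 10 CPM minimum in at least 1 of the 8 classes and 15 passed in all 8. Pfkm, Slc16a1, Slc16a3, Egln3 and Vegfa passed in none of them. Hk3 passed only in cDC1, Ldhb only in pDC, Bnip3 only in Ccr2+ cDC2, Aldoc in Ccr2+ cDC2 and pDC, and Slc2a1 in Ccr2+ cDC2 and Wdfy4-high cells. Over the last 400 bases of their transcripts, where this 3′ chemistry captures, 11 members share from 15.6% (Tpi1) to 49.7% (Gapdh) of their 31-base words with other annotated genes, most of those named for the leading matches being processed copies or paralogs. Counts of Gpi1, Aldoa, Tpi1, Gapdh, Pgk1, Pgam1, Eno1, Pkm, Ldha, Ldhb and Bnip3 are uncertain to the extent that their reads also matched other genes.

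The promoters of Pfkp, Pgk1, Gapdh and Eno3, members followed in detail below, are printed because they show the letters through which HIF1 is known to reach many genes of this pathway. The core of the element that HIF1 binds is ACGTG or GCGTG, and each match on either strand is in capitals (CACGT and CACGC are the same letters read from the opposite strand). Each window is the 250 bases before a RefSeq start, in build GRCm38.p6, written 5′ to 3′ on the strand of the gene.
Pfkp, chr13:6648772-6649021, minus strand: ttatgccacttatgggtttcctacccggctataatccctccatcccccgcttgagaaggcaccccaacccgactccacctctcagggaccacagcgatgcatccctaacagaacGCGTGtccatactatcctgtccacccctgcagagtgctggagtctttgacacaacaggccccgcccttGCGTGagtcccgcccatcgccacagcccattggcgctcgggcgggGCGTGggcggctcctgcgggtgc
Pgk1, chrX:106186850-106187099, plus strand: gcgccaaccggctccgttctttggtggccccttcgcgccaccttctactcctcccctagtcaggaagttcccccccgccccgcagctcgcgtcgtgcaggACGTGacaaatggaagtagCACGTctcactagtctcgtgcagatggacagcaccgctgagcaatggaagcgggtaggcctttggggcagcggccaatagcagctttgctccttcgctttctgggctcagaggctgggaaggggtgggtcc
Gapdh, chr6:125165774-125166023, minus strand: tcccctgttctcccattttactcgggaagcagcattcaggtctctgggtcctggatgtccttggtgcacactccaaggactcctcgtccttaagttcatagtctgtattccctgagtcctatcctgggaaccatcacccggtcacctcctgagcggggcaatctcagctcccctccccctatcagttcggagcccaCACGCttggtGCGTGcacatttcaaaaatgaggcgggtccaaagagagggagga
Eno3, chr11:70656926-70657175, plus strand: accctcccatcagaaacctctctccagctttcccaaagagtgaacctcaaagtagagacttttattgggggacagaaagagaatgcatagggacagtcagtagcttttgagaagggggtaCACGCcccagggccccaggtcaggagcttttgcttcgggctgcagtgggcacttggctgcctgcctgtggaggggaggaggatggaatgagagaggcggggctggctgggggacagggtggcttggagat

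The Pfkp window holds 3 such matches, those of Pgk1 and Gapdh 2 each and that of Eno3 1. Of the 30 members 29 were in the RefSeq table (Slc2a3 was not), with 43 windows, of which 35 (81.4%) held at least 1 match. Among all 32851 windows of the same length, 12679 (38.6%) did. The member windows also had more G and C, with a median of 60.4% against 52.4% over all windows. A match is a description of the letters, and binding was not measured.

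Taken as a list, the members were higher in H2-Aa cit/cit by the widest margin in cDC1, where the median log2 ratio was 0.36 over the 19 that passed and −0.01 over all genes that passed. In that class 9 members were past the fold upward (15.5% of all genes) and 3 downward (14.5% of all genes), or 6 and 3 as a mean of counts over cells. In resting cDC2, the largest class, the member median was 0.07 over 20 genes against −0.01 over all genes, with 1 member past the fold upward (4.43% of all genes) and 2 downward (3.58%, or 1 downward without ribosomal and mitochondrial genes in the denominator). A stricter gate, which kept 57 WT and 145 H2-Aa cit/cit cells, gave 8 upward and 4 downward. No share of all genes is given for this or the other alternatives, so their counts cannot be set against a background. In Ccr2+ cDC2 it was 0.08 over 23 members, with 2 past the fold upward (11.4% of all genes) and 3 downward (9.41%), or 1 and 0 with Leiden clusters. The 8 monocyte markers summed to 1140.01 and 523 CPM in Ccr2+ cDC2, 4 of 8 higher in H2-Aa cit/cit and 1 at 0 there, and their part was not tested.

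Mature DC without cDC1 genes had a median of 0.18 over 18 members against 0.01 over all genes, with 3 past the fold upward (8.61% of all genes) and 0 downward (6.57%), or 1 and 2 with Leiden clusters. Mature DC with cDC1 genes had a median of 0.24 over 18 members, but all genes there had a median of 0.17. There 8 members were past the fold upward (34.4% of all genes) and 2 downward (16.4%), but 4 and 4 when the class was scaled by the median ratio of all genes and 5 and 5 without cells of high Scrublet score. These values rest on 81 H2-Aa cit/cit cells. Proliferating DC without cDC1 genes had a median of −0.03 over 20 members against −0.05 over all genes, with 4 upward (8.39% of all genes) and 2 downward (10.2%). These counts were 5 and 1 when scaled by the median ratio or without ribosomal and mitochondrial genes in the denominator. As a mean of counts over cells they were 3 and 2.

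In pDC the median was 0.08 over 22 members against 0.00 over all genes, with 5 upward (14.6% of all genes) and 0 downward (14.5%). The balance turned to 1 upward and 4 downward without cells of high Scrublet score (a score for likely doublets), and to 1 and 2 with the class taken from Leiden clusters. In Wdfy4-high cells it was 0.09 over 21 members against 0.02, with 3 upward (7.32% of all genes) and 2 downward (5.6%), or 2 and 3 under scaling by the median ratio. Of the members that passed 10 CPM, a single one exceeded a log2 ratio of 1 in each of 3 classes, Ldha in mature DC with cDC1 genes, Pdk1 in proliferating DC and Hk2 in pDC, all upward. None did so downward. Under the alternatives these 3 ratios fell as low as 0.37, 0.57 and 0.72. The most UMIs in 1 H2-Aa cit/cit cell was 6 of 22 for Ldha and 6 of 20 for Hk2.

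**Figure D1:**
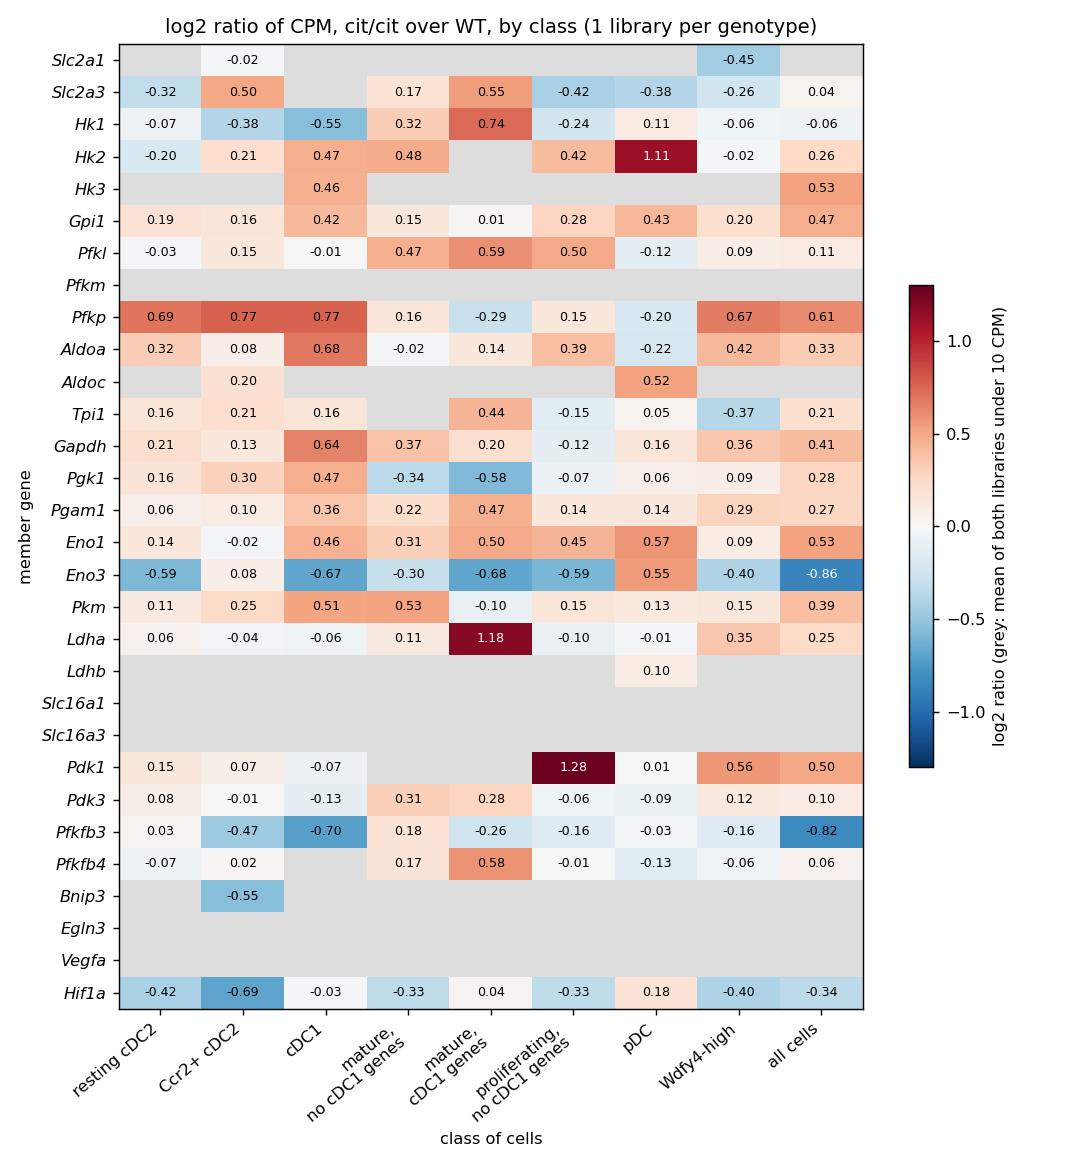
Log2 ratio of summed CPM (H2-Aa cit/cit over WT) for each member (rows) in each of the 8 classes and over all cells (columns), with colour for the ratio and grey where the gene did not pass 10 CPM. The cDC1 column holds 9 members past 0.4 upward, Eno3 is below 0 in 6 of the 8 classes and Gpi1 is above 0 in all 8.

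In cDC1 the 9 members past the fold upward were Pfkp, Aldoa, Gapdh, Pkm, Pgk1, Hk2, Eno1, Hk3 and Gpi1, and the 3 downward were Pfkfb3, Eno3 and Hk1. Pfkp, the platelet-type subunit of phosphofructokinase, stood at 90.9 CPM in WT (83.7 to 98.6, exact 95% Poisson interval) and 155 CPM in H2-Aa cit/cit (147 to 163), a log2 ratio of 0.77 (0.63 to 0.91, exact conditional binomial interval). Aldoa, an aldolase that splits fructose bisphosphate, stood at 113 CPM and 182 CPM, a log2 ratio of 0.68 (0.55 to 0.81). Gapdh, which oxidises glyceraldehyde phosphate, stood at 348 CPM (334 to 363) and 544 CPM (529.6 to 559.7), a log2 ratio of 0.64 (0.57 to 0.72). These were the largest upward ratios in the class among the members that passed 10 CPM. Below that minimum Vegfa (given further on), Slc16a3, Slc16a1, Ldhb and Egln3 had larger ones. Slc16a3 had 8 and 30 UMIs (1.37, 0.21 to 2.71), Slc16a1 18 and 45, Ldhb 1 and 7, and Egln3 1 and 4.

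The other members past the fold upward, and Pgam1 just under it, had smaller ratios. Pkm, pyruvate kinase, stood at 110.1 and 157 CPM with a log2 ratio of 0.51 (0.38 to 0.64), and Pgk1, the first ATP-making enzyme, at 106 and 146 CPM with 0.47 (0.33 to 0.60). Gpi1, glucose phosphate isomerase, stood at 171 and 229 CPM with 0.42 (0.32 to 0.53), Eno1, the broadly expressed enolase, at 29.0 and 39.8 CPM with 0.46 (0.20 to 0.72), and Pgam1, phosphoglycerate mutase, at 95.9 and 123 CPM with 0.36 (0.22 to 0.50). Of the hexokinases, which trap glucose in the cell, Hk2 stood at 47.5 and 65.9 CPM (0.47, 0.27 to 0.67) and Hk3 at 44.2 and 60.9 CPM (0.46, 0.25 to 0.67).

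Of the members past the fold downward, Eno3 and Hk1 were at low levels. Pfkfb3, the activator-making enzyme, stood at 108 CPM (100.5 to 117) in WT and 66.6 CPM (61.5 to 72.1) in H2-Aa cit/cit, a log2 ratio of −0.70 (−0.86 to −0.54). Eno3, the muscle enolase, stood at 15.3 and 9.56 CPM with −0.67 (−1.10 to −0.25; −1.52 with the class taken from Leiden clusters), and Hk1 at 14.3 and 9.78 CPM with −0.55 (−0.99 to −0.12). The other members that passed lay closer to 0. Ldha, which makes lactate, stood at 233 and 224 CPM (−0.06, −0.15 to 0.04), Hif1a at 53.3 and 52.2 CPM (−0.03, −0.23 to 0.18), and the pyruvate dehydrogenase kinases Pdk1 and Pdk3 had ratios of −0.07 and −0.13, while Tpi1 and Pfkl had 0.16 and −0.01.

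Summed over the 30 members, cDC1 of WT gave 0.174% of their UMIs to the list and cDC1 of H2-Aa cit/cit 0.224%, a log2 ratio of 0.36 (0.33 to 0.39). With every cell thinned to 1500 UMIs, which left out 12 cells of each library, the shares were 0.168% and 0.220%. Depth, ribosomal content and other cell types' genes moved with these values. The median cDC1 had 9465 UMIs in WT but 14452 in H2-Aa cit/cit. In cells of 5000 to 20000 UMIs the list median was 0.28, with Pfkp at 0.72, Gapdh at 0.63, Aldoa at 0.60 and Pfkfb3 at −0.69.

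A cluster with a median of 33.5% ribosomal UMIs held 185 of the 578 WT cDC1 (32.0%) and 10 of the 654 H2-Aa cit/cit cDC1 (1.53%). Without that cluster the list median in cDC1 was 0.41, with Aldoa at 0.88, Gapdh at 0.74, Pfkp at 0.65, Pgk1 at 0.65 and Pfkfb3 at −0.90. The 10 mature DC markers summed to 439 CPM in WT cDC1 and 253 CPM in H2-Aa cit/cit cDC1, each of them lower in the latter and none at 0. The 8 Ccr2+ cDC2 markers went the other way, at 204 and 315 CPM, each of them higher in H2-Aa cit/cit and none at 0. The 8 macrophage markers summed to 38.5 and 67.3 CPM, 3 of 8 higher in H2-Aa cit/cit, with 2 and 1 of them at 0. The 6 markers of Wdfy4-high cells summed to 4229 and 2594 CPM, 1 of 6 higher in H2-Aa cit/cit and none at 0. The 6 plasma cell markers summed to 6.07 and 133 CPM, 2 of 6 higher and 2 at 0 in each library. Derl3, one of these 6, was also among the leading genes of a cluster led by Cox6a2 and Atf5 that is described further on. That cluster held 2 H2-Aa cit/cit cDC1. Which plasma cell markers carried the sum is not given here, so it does not by itself show plasma cells in the class. The part of all these marker lists in the cDC1 ratios, that of Pfkfb3 included, was not tested.

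**Figure D2:**
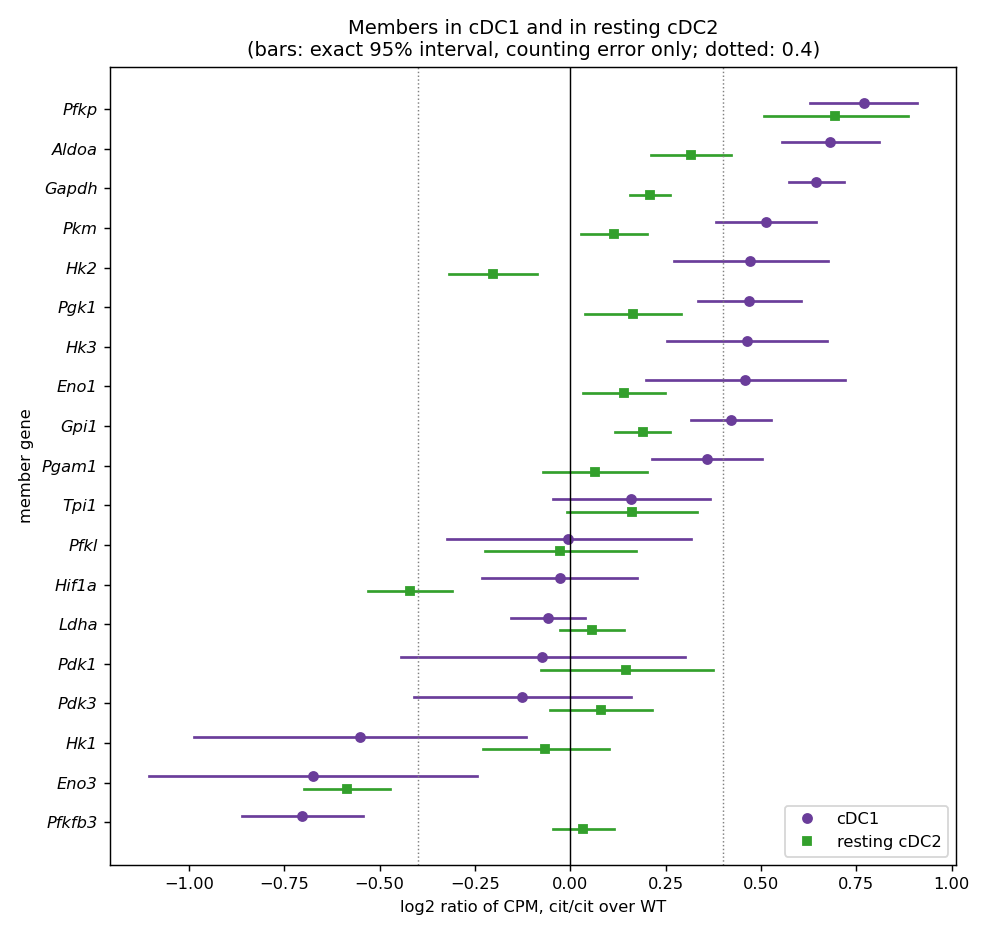
Log2 ratio of summed CPM (H2-Aa cit/cit over WT) per member with its exact 95% conditional binomial interval (bars), for cDC1 (circles) and resting cDC2 (squares). Gapdh stands at 0.64 in cDC1 and 0.21 in resting cDC2, Pfkp at 0.77 and 0.69, and Pfkfb3 at −0.70 and 0.03.

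Of the hexose transporters, Slc2a3 differed between classes by more than between genotypes. Slc2a3, a high-affinity glucose transporter, stood in resting cDC2 at 93.0 CPM in WT against 74.3 CPM in H2-Aa cit/cit, a log2 ratio of −0.32 (−0.42 to −0.23). It was highest in Wdfy4-high cells, at 140.4 and 117 CPM (−0.26, −0.41 to −0.12), and lay near 10 CPM in cDC1, at 8.88 and 8.49 CPM, and in mature DC without cDC1 genes, at 10.2 and 11.5 CPM. In WT, cDC1 were 3.39 log2 units below resting cDC2 in this gene, and in H2-Aa cit/cit 3.13 below.

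The ratio of Slc2a3 did not keep 1 sign. It was −0.42 (−0.73 to −0.11) in proliferating DC without cDC1 genes, at 56.5 and 42.1 CPM, and −0.38 (−0.85 to 0.08) in pDC. In Ccr2+ cDC2 it was 0.50 (0.06 to 0.96), at 39.0 and 55.1 CPM, from 54 and 191 UMIs, but −0.15 when that class was taken from Leiden clusters instead of marker scores. Slc2a1, the widespread basal glucose transporter, was scarce in every class, at 8.29 and 7.76 CPM in resting cDC2 and 13.4 and 9.86 CPM in Wdfy4-high cells (−0.45, −0.96 to 0.06). That last value was 1.09 in cells of 5000 to 20000 UMIs.

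Among the hexokinases, Hk3, the isozyme typical of myeloid cells, was highest in cDC1 of the 8 classes. It stood at 1.78 CPM in resting cDC2 of WT and at 4.42 CPM in those of H2-Aa cit/cit, so that cDC1 were 4.63 log2 units higher than resting cDC2 in WT, and by 3.78 in H2-Aa cit/cit. After thinning to 1500 UMIs, 5.83% of WT cDC1 (4.05 to 8.09, Clopper-Pearson) and 7.63% of H2-Aa cit/cit cDC1 (5.70 to 9.97) had an Hk3 UMI. In mature DC without cDC1 genes 0 of 924 WT cells had one at that depth, where the upper limit is 0.398% (Clopper-Pearson), and 0.270% of those of H2-Aa cit/cit did. Without thinning, an Hk3 UMI was present in 6 of 971 and 5 of 773 of these mature DC, so they were not without the transcript, and in 29.2% and 46.0% of cDC1, at the unequal depths given above.

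Outside the 8 classes Hk3 passed the 10 CPM minimum in 3 groups of cells, and the interval lay above 0 in the proliferating group and held 0 in the others. Proliferating DC with cDC1 genes (73 and 69 cells) stood at 26.5 and 51.8 CPM (0.96, 0.31 to 1.65), and the macrophage class (147 and 93 cells) at 27.8 and 53.0 CPM (0.93, −0.05 to 1.92). Monocytes (200 and 225 cells) stood at 15.8 and 20.4 CPM (0.36, −0.45 to 1.20).

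Hk2, the inducible hexokinase, was lower in H2-Aa cit/cit in resting cDC2, at 62.3 and 54.1 CPM (−0.20, −0.32 to −0.09), and higher in cDC1 as given above. It was also higher in proliferating DC without cDC1 genes, at 34.1 and 45.5 CPM (0.42, 0.06 to 0.79), and in mature DC without cDC1 genes, at 11.2 and 15.6 CPM (0.48, −0.05 to 1.01). In pDC it rested on 12 and 20 UMIs, at 10.999 and 23.7 CPM (1.11, 0.00 to 2.27). Hk1, the isozyme of most tissues, passed in all 8 classes and stood in resting cDC2 at 29.9 and 28.6 CPM. Its ratio was −0.55 in cDC1 but 0.74 (0.04 to 1.38) in mature DC with cDC1 genes, at 25.1 and 41.9 CPM, from 117 and 24 UMIs.

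At the phosphofructokinase step, the committed step of the pathway, the 3 subunit genes behaved differently. Pfkp was past the fold upward in 4 classes. Beside cDC1 these were resting cDC2, at 20.1 CPM (17.9 to 22.6) and 32.6 CPM (30.7 to 34.6), a log2 ratio of 0.69 (0.51 to 0.88), Ccr2+ cDC2, at 36.1 and 61.5 CPM (0.77, 0.32 to 1.24), and Wdfy4-high cells, at 23.0 and 36.5 CPM (0.67, 0.35 to 0.99). Under the alternatives the ratio in Wdfy4-high cells ran from 0.19 to 1.09, in a class with medians of 2945.5 and 2221 UMIs per cell. Pfkp was near 0 in the mature and proliferating classes without cDC1 genes (0.16 and 0.15) and below 0 in pDC and in mature DC with cDC1 genes (−0.20 and −0.29). As a level it was 2.17 log2 units higher in cDC1 than in resting cDC2 of WT, and 2.25 in H2-Aa cit/cit.

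The resting cDC2 ratio of Pfkp depended on which cells the class held. It was 0.30 (0.10 to 0.50) without a cluster led by Cox6a2 and Atf5 that is described further on. It was −0.14 when the class was taken from Leiden clusters, and −0.13 with a gate that asked for a clear lead over the next class and kept 57 WT and 145 H2-Aa cit/cit cells. The liver-type subunit Pfkl stood at 20.5 and 20.1 CPM in resting cDC2 (−0.03) and was past the fold in mature DC without cDC1 genes (18.6 and 25.8 CPM, 0.47, 0.06 to 0.88), in mature DC with them (0.59) and in proliferating DC (0.50). The muscle subunit Pfkm was at or below 5.5 CPM in each of the 8 classes in both libraries.

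Pfkfb3 marked the mature classes. It stood at 627 CPM (606 to 648) and 711 CPM (684 to 738) in mature DC without cDC1 genes, a ratio of 0.18 (0.11 to 0.25), and at 902 and 754 CPM in mature DC with cDC1 genes, a ratio of −0.26 (−0.40 to −0.12). In resting cDC2 it stood at 122 and 124 CPM (0.03, −0.05 to 0.11), so mature DC without cDC1 genes were 2.37 log2 units higher than resting cDC2 in WT, and by 2.51 in H2-Aa cit/cit. With cells thinned to 1500 UMIs, a Pfkfb3 UMI was found in 54.7% of mature DC without cDC1 genes in WT and in 63.1% of those in H2-Aa cit/cit, against 15.6% and 15.9% of resting cDC2. Unthinned, the shares were 84.2% and 88.1%, against 49.2% and 46.9%.

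The mature classes thus had ratios of opposite sign for Pfkfb3, and the cells behind the class with cDC1 genes were unlike between libraries. A single Leiden cluster held 284 of its 426 WT cells and 13 of its 81 H2-Aa cit/cit cells, while the cluster of the other mature DC held 94 and 48. No cDC1 marker was among the 100 leading genes of that single cluster. In the class, the 11 cDC2 markers summed to 830 and 1074 CPM, 10 of 11 higher in H2-Aa cit/cit. The 8 monocyte markers summed to 109 and 265 CPM, 6 of 8 higher. The part of this make-up in the ratios of the class, those of Hk1, Ldha and Eno3 included, was not tested. The Pfkfb3 ratio was also below 0 in Ccr2+ cDC2, at 126 and 90.6 CPM (−0.47, −0.74 to −0.19), and in Wdfy4-high cells, at 223 and 199.5 CPM (−0.16, −0.28 to −0.05). Pfkfb4, a relative of Pfkfb3, differed little in the classes with most UMIs, at 26.5 and 25.3 CPM in resting cDC2 (−0.07) and 43.0 and 41.3 CPM in Wdfy4-high cells (−0.06). It stood highest in monocytes, at 60.6 and 59.3 CPM.

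Of the enzymes from isomerase to pyruvate kinase that lay above 0 in cDC1, Tpi1 had 0.16 in both classes and the others had smaller ratios in resting cDC2 than in cDC1. Gapdh stood there at 279.6 and 323 CPM (0.21, 0.16 to 0.26), Gpi1 at 147 and 167 CPM (0.19, 0.12 to 0.26) and Aldoa at 67.8 and 84.3 CPM (0.32, 0.21 to 0.42). Pgk1 (0.16), Tpi1, Eno1 (0.14), Pkm (0.11) and Pgam1 (0.06) were on the same side of 0 and none of them past the fold. Gpi1 and Pgam1 were above 0 in all 8 classes, with Pgam1 between 0.06 and 0.47 and Gpi1 between 0.01 and 0.43.

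In mature DC without cDC1 genes Pkm stood at 50.3 and 72.5 CPM (0.53, 0.28 to 0.77) and Gapdh at 133 and 172 CPM (0.37, 0.22 to 0.52), while Pgk1 was lower, at 27.0 and 21.4 CPM (−0.34, −0.74 to 0.06). The 8 NK markers, Ccl5 among them, summed to 4269 and 7260 CPM in these cells, 3 of 8 higher in H2-Aa cit/cit and 5 and 4 of them at 0, and their part was not tested. Eno1 was past the fold in 4 classes, cDC1 and pDC (30.2 and 45.0 CPM, 0.57, −0.14 to 1.29) among them, and in proliferating DC without cDC1 genes stood at 60.0 and 81.8 CPM (0.45, 0.18 to 0.72). Gapdh went the other way in those proliferating cells, at 572 and 528 CPM (−0.12, −0.21 to −0.02). Aldoc, the brain-type aldolase, was at 10.8 and 12.4 CPM in Ccr2+ cDC2 (0.20) and 8.25 and 11.8 CPM in pDC (0.52, −0.93 to 1.998).

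Eno3 was lower in H2-Aa cit/cit in 6 of the 8 classes. In resting cDC2 it stood at 72.7 CPM (68.4 to 77.2) and 48.5 CPM (46.2 to 50.8), a log2 ratio of −0.59 (−0.70 to −0.47). In mature DC it stood at 172 and 139.8 CPM without cDC1 genes (−0.30, −0.46 to −0.15) and at 195 and 122 CPM with them (−0.68, −1.05 to −0.32). Proliferating DC without cDC1 genes were at 70.6 and 46.8 CPM (−0.59, −0.88 to −0.31) and Wdfy4-high cells at 29.1 and 22.1 CPM (−0.40, −0.74 to −0.06, just under the fold before rounding).

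The exceptions were Ccr2+ cDC2, at 14.4 and 15.3 CPM (0.08, −0.68 to 0.90), and pDC, at 13.7 and 20.1 CPM (0.55, −0.54 to 1.66). As a level, Eno3 was 1.24 log2 units higher in mature DC without cDC1 genes than in resting cDC2 of WT, and by 1.53 in H2-Aa cit/cit, and 1.54 and 1.97 higher in monocytes, which stood at 212 and 189 CPM. In resting cDC2 the 10 mature DC markers moved with it, summing to 1117 and 756 CPM, each lower in H2-Aa cit/cit. The 8 monocyte markers were mixed: their sum was 271 and 134 CPM, but 6 of 8 were higher in H2-Aa cit/cit. None was at 0 in either list. The same 10 mature DC markers were also lower in proliferating DC without cDC1 genes (1411 and 853 CPM) and Wdfy4-high cells (1408 and 929 CPM), each of them in both. In Ccr2+ cDC2 they summed to 559 and 472 CPM, 4 of 10 higher in H2-Aa cit/cit. In pDC they summed to 529 and 656 CPM, 8 of 10 higher. The part of these markers in the Eno3 ratios was not tested. With the stricter gate, which kept 57 and 145 resting cDC2, the Eno3 ratio in that class was 0.74.

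**Figure D3:**
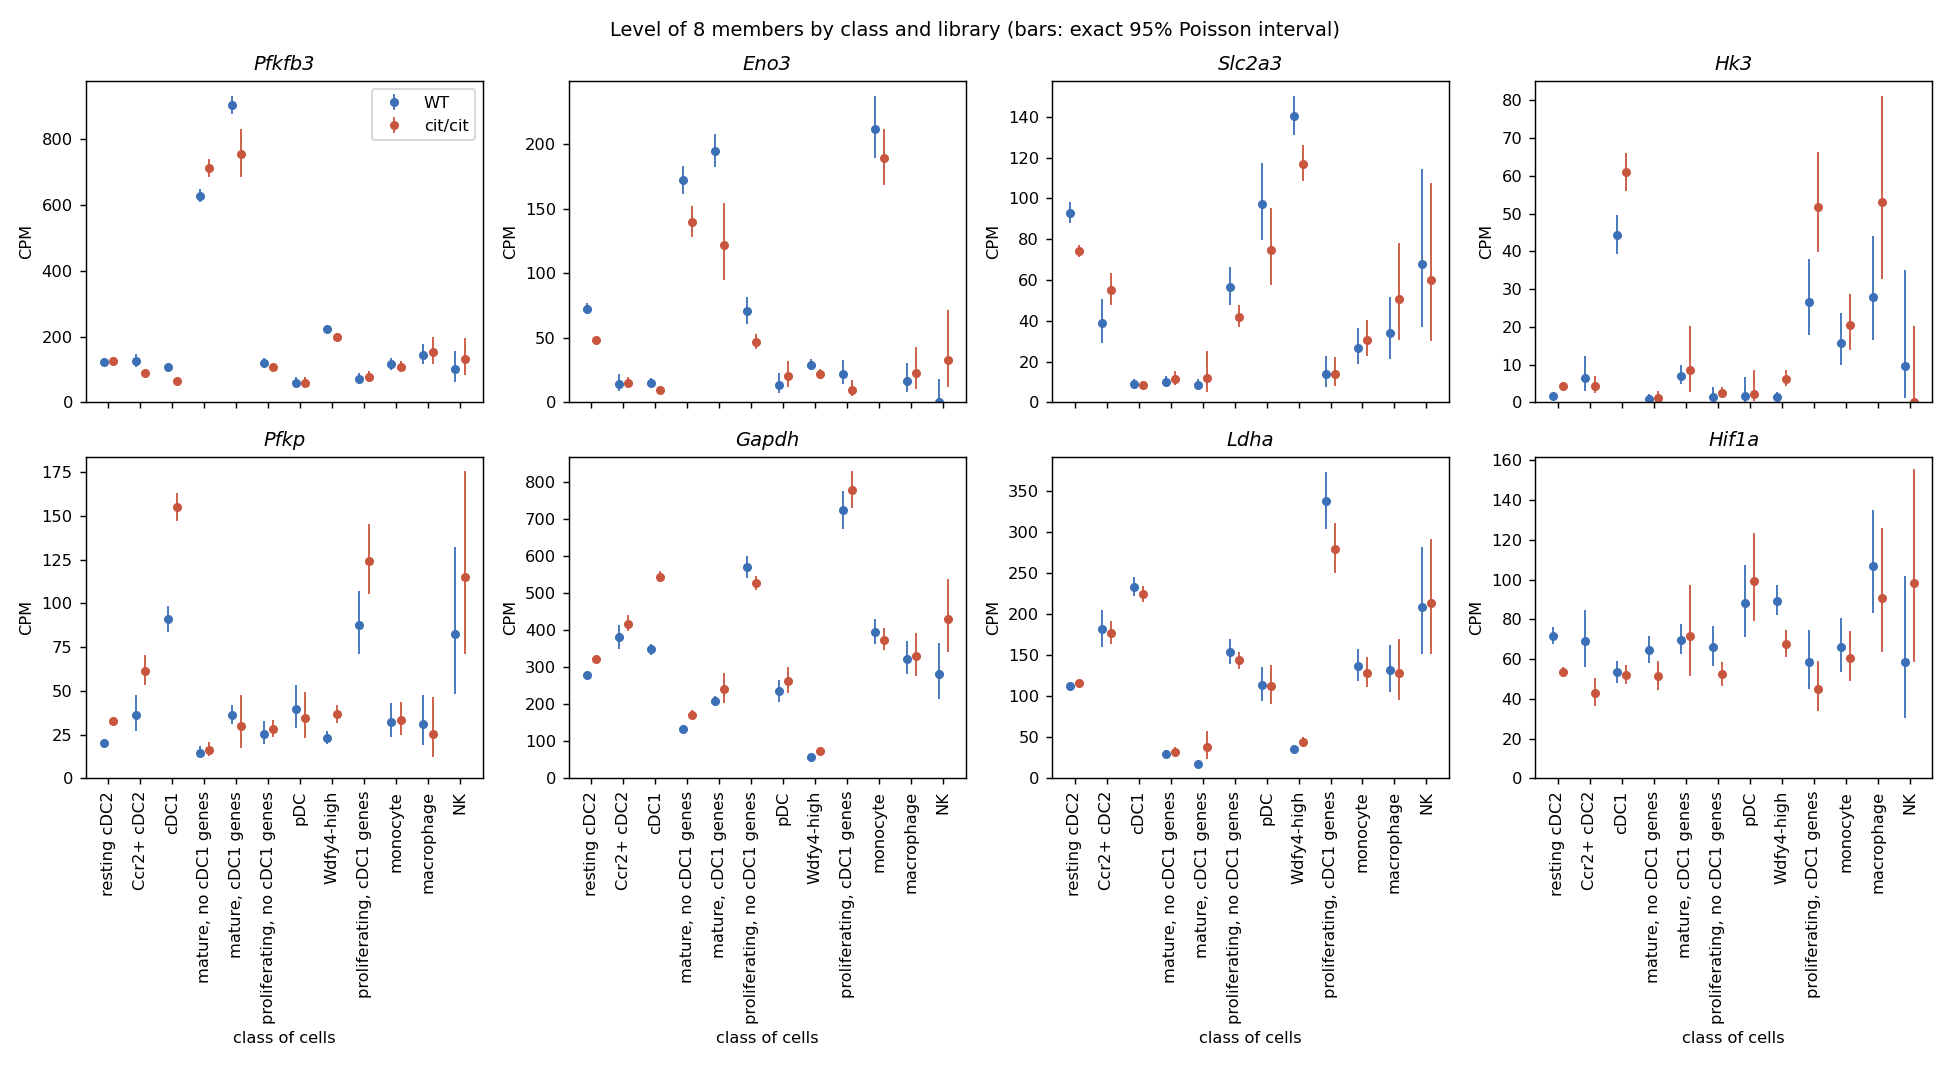
Level in CPM (vertical axis) of 8 members (Pfkfb3, Eno3, Slc2a3, Hk3, Pfkp, Gapdh, Ldha, Hif1a) in 12 classes of cells (horizontal axis), WT in blue and H2-Aa cit/cit in red, with exact 95% Poisson intervals as bars. Pfkfb3 reaches 627 to 902 CPM in the mature classes, Hk3 stands at 44.2 and 60.9 CPM in cDC1, and Slc2a3 is lower in cDC1 and mature DC than in resting cDC2 in both libraries.

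On the lactate branch, Ldha stood at 112 and 117 CPM in resting cDC2 (0.06, −0.03 to 0.14) and was 1.92 log2 units lower in mature DC without cDC1 genes than in resting cDC2 of WT, 1.86 lower in H2-Aa cit/cit. It was higher in H2-Aa cit/cit in Wdfy4-high cells, at 35.3 and 44.9 CPM (0.35, 0.08 to 0.61). Its largest ratio was that in mature DC with cDC1 genes, at 16.9 and 38.4 CPM (1.18, 0.43 to 1.88), from 79 and 22 UMIs. Ldhb, the isoform that favours lactate oxidation, was a pDC gene, at 43.1 and 46.2 CPM there (0.10, −0.55 to 0.74) and 4.32 and 1.98 CPM in resting cDC2.

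The monocarboxylate transporters, which move lactate across the membrane, were scarce. Slc16a3 stood at 6.03 and 4.60 CPM in resting cDC2 but at 33.7 and 33.8 CPM in monocytes (0.00, −0.59 to 0.59). Slc16a1 stayed at or below 4.84 CPM in each of the 8 classes. Of the kinases that switch off pyruvate dehydrogenase, Pdk3 stood at 43.2 and 45.7 CPM in resting cDC2 (0.08, −0.05 to 0.22) and was past the fold in none of the 8 classes.

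Pdk1, itself a HIF1 target, was higher in H2-Aa cit/cit in proliferating DC without cDC1 genes, at 6.67 CPM (3.88 to 10.7) and 16.2 CPM (12.9 to 19.97), from 17 and 86 UMIs, a ratio of 1.28 (0.52 to 2.12). In Wdfy4-high cells it stood at 17.8 and 26.3 CPM (0.56, 0.20 to 0.93), but its ratio was −0.41 in those of 5000 to 20000 UMIs. In resting cDC2 it was 0.15 (−0.08 to 0.37).

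Hif1a, the oxygen-sensitive factor itself, was lower in H2-Aa cit/cit in the cDC2 classes. It stood at 71.8 CPM (67.5 to 76.3) and 53.7 CPM (51.2 to 56.1) in resting cDC2, a log2 ratio of −0.42 (−0.53 to −0.31), and at 69.3 and 43.0 CPM in Ccr2+ cDC2 (−0.69, −1.07 to −0.30). Wdfy4-high cells had −0.40 (−0.59 to −0.21), and both mature DC and proliferating DC without cDC1 genes −0.33. In cDC1 (−0.03), pDC (0.18, −0.26 to 0.62) and mature DC with cDC1 genes (0.04) the interval held 0. This is transcript, and HIF1 alpha is set mainly by its degradation, which these data do not measure.

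Of the HIF1 targets in the list, Bnip3, Egln3 and Vegfa were near the limit of detection in most classes. Bnip3, a mitophagy receptor, stood at 4.11 and 4.998 CPM in resting cDC2 and at 12.3 and 8.37 CPM in Ccr2+ cDC2, from 17 and 29 UMIs (−0.55, −1.46 to 0.40). Egln3 stood at 0.754 and 0.345 CPM in resting cDC2, and monocytes of WT held 17 UMIs of it against 5 in H2-Aa cit/cit. Vegfa, the angiogenic factor, stood at 3.15 and 2.73 CPM in resting cDC2. In cDC1 it had 1 UMI in WT against 29 in H2-Aa cit/cit, spread over 28 cells, a ratio of 4.32 (1.73 to 9.67), while in monocytes it had 16 UMIs in 7 WT cells and 2 UMIs in 2 H2-Aa cit/cit cells.

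Part of what the whole libraries showed came with the share of each class. Over all cells 21 members passed, with a median of 0.26 against 0.02 over all genes, 6 past the fold upward (8.41% of all genes) and 2 downward (11.2%). Mature DC without cDC1 genes made up 12.4% of WT cells but 6.71% of H2-Aa cit/cit cells, those with cDC1 genes 5.45% and 0.703%, and resting cDC2 23.2% and 42.0%. Mature DC with Irf8 but no UMI of Xcr1, Clec9a or Cadm1 are in neither mature share. With the class shares held the same in both libraries, the member median was 0.12 and 17 of the 21 members lay closer to 0. For this each class was weighted by its share of UMIs, averaged over both libraries, and not by the cell shares above. Ungated cells counted as a class. Neither the median nor the count was made over all genes, so they cannot be set against a background.

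Pfkfb3, at 300.0 and 169.6 CPM over all cells, was the clearest case, at −0.82 with the libraries' own shares and −0.09 with equal ones. Eno3 went from −0.86 to −0.48, Eno1 from 0.53 to 0.19, Gpi1 from 0.47 to 0.25, Gapdh from 0.41 to 0.25 and Ldha from 0.25 to 0.01. Pfkp stayed at 0.61, Hk3 was 0.53 and 0.59, and Hif1a −0.34 and −0.30. Slc2a3 was on the other side of 0, at 0.04 and −0.22.

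**Figure D4:**
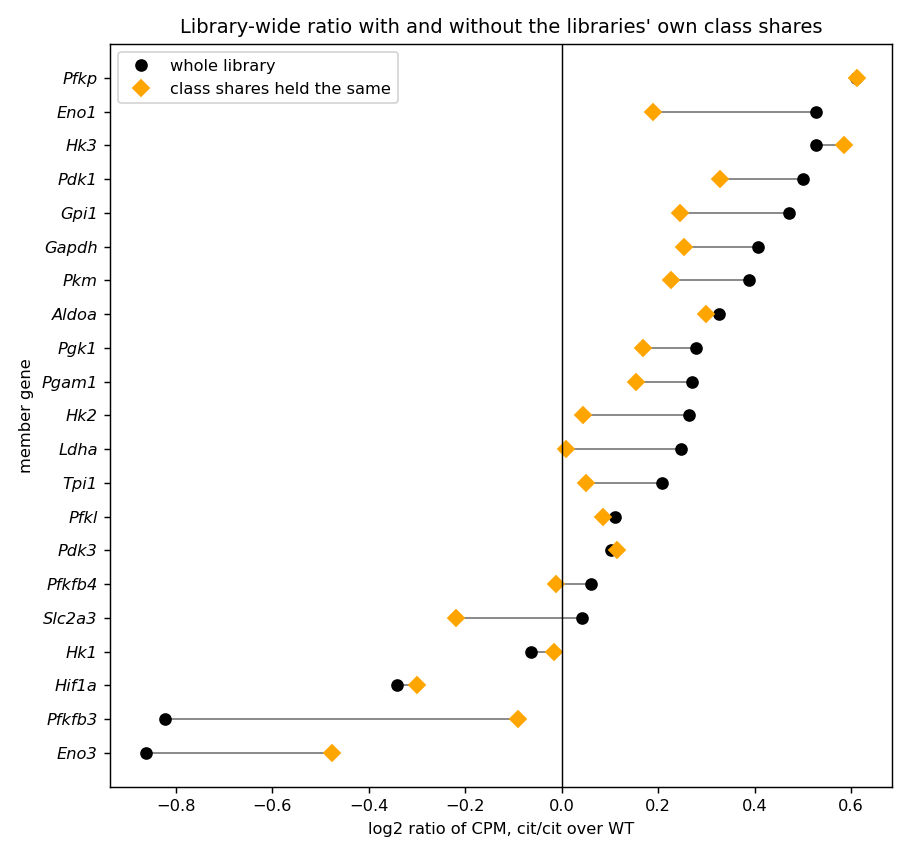
Log2 ratio of CPM over all cells (horizontal axis, H2-Aa cit/cit over WT) for the 21 members that passed, with each library's own class shares (circles) and with the class shares of UMIs held the same (diamonds). Pfkfb3 goes from −0.82 to −0.09, while Pfkp stands at 0.61 in both.

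A cluster led by Cox6a2 and Atf5, with 1 WT cell and 1022 H2-Aa cit/cit cells, held much of the Pfkp and Aldoa difference in resting cDC2. The resting cDC2 of H2-Aa cit/cit counted 873 cells of this cluster and 3969 others, at medians of 7193 and 6640 UMIs. Pfkp stood at 24.8 CPM in the other cells and 65.2 CPM in the cluster (1.39, 1.22 to 1.57), Aldoa at 70.4 and 143 CPM (1.02, 0.91 to 1.13) and Pgk1 at 48.2 and 75.9 CPM (0.65, 0.50 to 0.80). Eno3 was lower in the cluster, at 53.5 and 27.4 CPM (−0.97, −1.19 to −0.74), and Pfkfb3 had −0.41.

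Clustering used other genes of these same cells, with the members left out, so this is a description of the cluster and not a test. Of 20 members 3 were past the fold upward in it (6.7% of all genes) and 2 downward (10.9%), with a member median of 0.12 against −0.06 over all genes. The other 3969 cells set against WT gave a member median of 0.04, with Pfkp at 0.30, Aldoa at 0.05 (−0.06 to 0.17), Pgk1 at 0.01, Gapdh at 0.17, Hif1a at −0.41 and Eno3 at −0.44. The ratios of Hif1a and Eno3 thus lay past −0.4 with and without the cluster, whereas that of Pfkp was past 0.4 only with it.

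The share of all UMIs that the 30 members took was set more by class than by genotype outside cDC1. It was 0.151% and 0.156% in resting cDC2, 0.184% and 0.192% in Ccr2+ cDC2, 0.142% and 0.156% in mature DC without cDC1 genes and 0.110% and 0.109% in Wdfy4-high cells, the lowest. Proliferating DC with cDC1 genes had the highest, 0.247% and 0.260%, with Gapdh at 724 and 779 CPM and Ldha at 338 and 279 CPM. The median cDC1 spent 0.161% of its UMIs on the list in WT, against 0.216% in H2-Aa cit/cit. Abundant genes weigh most in these shares. Pfkfb3 gave 3575 of the 8081 member UMIs in mature DC without cDC1 genes of WT and 2726 of 5986 in those of H2-Aa cit/cit. Gapdh gave 2237 of 11182 in cDC1 of WT and 5067 of 20809 in those of H2-Aa cit/cit.

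**Figure D5:**
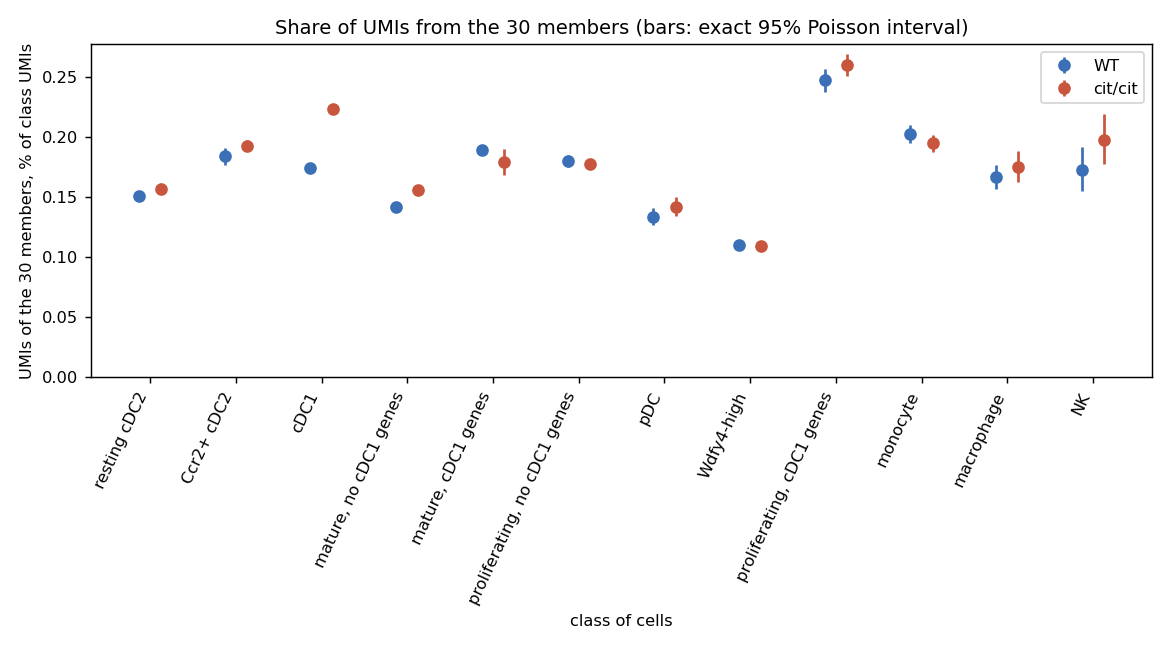
Share of UMIs that came from the 30 members, in percent (vertical axis from 0), per class (horizontal axis), WT in blue and H2-Aa cit/cit in red, with exact 95% Poisson intervals as bars. cDC1 stand at 0.174% and 0.224%, and mature DC without cDC1 genes, the next widest apart of the 8 classes followed by gene, at 0.142% and 0.156%.

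Genes of neighbouring pathways were taken from lists chosen with earlier results of these data known. In resting cDC2 no gene of the pentose phosphate pathway (7 of 7 passing, median 0.05), of pyruvate entry into mitochondria (7 of 11, −0.10) or of the other isozymes and side branches of glycolysis (7 of 25, 0.01) was past the fold. Of the HIF regulators (7 of 10, 0.24) only Egln2, a prolyl hydroxylase, was past it, at 13.4 and 17.9 CPM (0.41, 0.18 to 0.65). Of the other hypoxia-inducible genes (14 of 23, 0.05) Ddit4, an inhibitor of mTORC1 that also answers the integrated stress response, stood at 56.1 and 106 CPM (0.92, 0.81 to 1.03) and Rora at 16.4 and 11.7 CPM (−0.48, −0.72 to −0.25).

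In cDC1, where 15.5% of all genes were past the fold upward and 14.5% downward, 2 genes of 7 were past it upward in each of the pentose phosphate, pyruvate entry and HIF regulator lists, 2 of 12 in the hypoxia-inducible list and 0 of 5 in the isozyme list. These were G6pdx (0.43) and Pgd (0.41) of the pentose phosphate pathway, Pdha1 (0.79) and Mpc1 (0.42) of pyruvate entry, and Siah2 (27.1 and 49.97 CPM, 0.88, 0.63 to 1.14) and Egln2 (0.70) of the HIF regulators. Of the 12 hypoxia-inducible genes that passed there, P4ha1 (0.68) and Higd1a (0.40) were past it upward and Mxi1 (−0.62), Plin2 (−0.41) and Zfp395 (−0.68) downward. Under the 10 CPM minimum there, Ddit4 stood at 4.20 and 14.6 CPM (1.80, 1.19 to 2.45). Of the others under it, Ankrd37 (3.27, from 1 and 14 UMIs) had an interval above 0, and Ndrg1 (−0.78), Car9 (−0.87) and Rora (−1.38) had one below. The medians of the 5 lists in cDC1 lay between −0.06 and 0.28, below the 0.36 of the members.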

How the data were processed

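The files held UMI counts per gene and cell, 1 filtered matrix per library. Per the submitters' processing notes the authors made the deposited counts with Cell Ranger 5.0.1 on mm10; the annotation and the handling of intronic reads are not given in the sources used here. All cells were kept (the lowest had 500 UMIs), with no filter on mitochondrial UMIs, and doublets were kept except in 1 alternative (Scrublet).

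Cells were gated on the mean standardised log score of marker lists: at least 0.75 (2 for pDC) with at least 3 markers detected, the rest being resting or Ccr2+ cDC2, or Wdfy4-high cells below 10% ribosomal UMIs. Mature DC with at least 1 UMI of Xcr1, Clec9a or Cadm1 were called with cDC1 genes. Mature DC with Irf8 but none of these were set apart and are in neither mature class. This split depends on depth: median UMIs were 9951.5 and 5929 with cDC1 genes, and 5802 and 4655 without. These limits were set after the scores were seen; 3 versions were tried, the last after members' values were seen. The members, marker lists, pathway lists and comparisons were chosen with earlier results of these data known. The names are rebuilt here, not the authors' clusters.

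UMIs were summed per class and library and given as CPM of all UMIs of the class. Genes passed at a mean of 10 CPM. Ratios carry exact conditional binomial intervals, levels exact Poisson intervals and shares Clopper-Pearson intervals, all at 95%. With 1 library per genotype no test was run. All 30 members, and of the pathway lists those past the fold in resting cDC2 or at the ends of a list, are named; the genes past the fold in cDC1 were named after their values were seen. Leiden clusters (resolution 0.6, 30 principal components, 3000 variable genes with the members left out) served as an alternative and to describe cells. The ratio steps were tested on simulated counts. Positions are those of RefSeq on GRCm38.p6; other transcript sequence came from GENCODE on GRCm38. Python 3.11.15, numpy 2.4.6, scipy 1.17.1, pandas 2.3.3, scanpy 1.11.5 and matplotlib 3.10.9 were used.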

Additional observations from a re-analysis of the deposited data

Results flagged for a closer look

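Slc2a3 had ratios of opposite sign in classes of the same libraries: 0.50 in Ccr2+ cDC2 and −0.42 in proliferating DC without cDC1 genes, with counting intervals that did not meet 0 in either. The difference between the classes was not tested, since each genotype had 1 library. Hk1 likewise had 0.74 in mature DC with cDC1 genes and −0.55 in cDC1, the former from 24 UMIs in 81 H2-Aa cit/cit cells, and that difference was not tested either.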

How the results depend on the processing

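The list medians and the 49 member ratios past the fold were recomputed under 13 alternatives, 4 of them (cells over 25% ribosomal UMIs left out, cells of 5000 to 20000 UMIs, and each of the described clusters left out) chosen after seeing the data. The 103 list medians each moved by less than the members' counting error (the distance from a ratio to its interval's end, median over members), which is wide in the small classes. That distance belongs to single genes and not to a median over many, so this comparison cannot show that the medians were stable. In cDC1 the median ran from 0.26 to 0.46, in resting cDC2 from −0.02 to 0.13 and in mature DC with cDC1 genes from 0.02 to 0.37, with no value there under Leiden clusters. Of 627 recomputed member ratios 22 moved by more than that distance in the same direction and 11 changed sign, and 15 of the 49 were past the fold in every alternative.

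With the stricter gate Pfkp in resting cDC2 was −0.13, Eno3 there 0.74 and Aldoc in pDC −0.0024. Under Leiden clusters Pfkp in resting cDC2 was −0.14, Slc2a3 in Ccr2+ cDC2 −0.15 and Eno3 in pDC −0.47. Without high Scrublet scores Pfkl in mature DC with cDC1 genes was −0.20 and Eno3 in pDC −0.68. As a mean over cells Slc2a3 in mature DC with cDC1 genes was −0.063, and in cells of 5000 to 20000 UMIs Slc2a1 and Pdk1 of Wdfy4-high cells were 1.09 and −0.41. The cause was not tested.

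The counts below have no share of all genes under the same alternative beside them, so they show only how the member counts moved. Members past the fold in cDC1, 9 upward and 3 downward, were 15 and 4 with no minimum beyond 3 UMIs, and 8 and 1 at 50 CPM. As a mean of counts over cells they were 6 and 3. The lowest cDC1 ratios of Gpi1, Eno1, Hk3 and Pgk1 over the alternatives were 0.32, 0.35, 0.37 and 0.38, under the fold. In resting cDC2, 1 and 2 became 8 and 4 with the stricter gate, 3 and 5 with no minimum, and 0 and 1 under Leiden clusters. In mature DC without cDC1 genes, 3 and 0 became 7 and 3 with no minimum, 1 and 0 at 50 CPM, 6 and 1 in cells of 5000 to 20000 UMIs, and 1 and 2 under Leiden clusters. In mature DC with cDC1 genes, 8 and 2 became 13 and 4 with no minimum, 0 and 1 at 50 CPM, 4 and 4 under scaling by the median ratio, and 5 and 5 without high Scrublet scores. In proliferating DC, 4 and 2 became 8 and 4 with no minimum and 1 and 1 at 50 CPM. In pDC, 5 and 0 became 1 and 0 at 50 CPM, 1 and 2 under Leiden clusters, and 1 and 4 without high Scrublet scores. In Wdfy4-high cells, 3 and 2 became 5 and 4 with no minimum and 0 and 1 at 50 CPM, and in Ccr2+ cDC2, 2 and 3 became 3 and 6 with no minimum, 0 and 2 at 50 CPM, and 1 and 0 under Leiden clusters. No paired analysis was possible because the 2 groups share fewer than 2 replicate numbers. Depth limits the members below 10 CPM, although the interval of Vegfa in cDC1 lay above 0.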
